A study of Homo sapiens with 4 samples.

Results

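The 699 m6A peaks that the authors' deposited table labels intronic, of 9466 listed peaks, lay on 609 of 6763 listed genes. They were taken by that region label alone, with no filter on level, length or fold change. The cells were BEAS-2B, a human bronchial epithelial line made immortal in culture. The OE arm was transfected with a plasmid that overexpresses METTL16 and the NC arm with an empty plasmid, so both arms are transfected cells of 1 line. Each arm gave 1 input library and 1 library of RNA bound by an m6A antibody, 4 libraries in all, and the fold changes below are OE over NC. No difference below has a replicate check.

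N6-methyladenosine (m6A) is a methyl mark on adenosine in RNA, placed on most mRNAs by the METTL3 and METTL14 complex, mainly near stop codons and in 3'UTRs. METTL16 is a separate methyltransferase that acts on the U6 small nuclear RNA, a core part of the spliceosome, and on hairpins of MAT2A mRNA, where it is linked to the splicing of a retained intron. Introns are present in nuclear pre-mRNA before splicing, where the nuclear m6A reader YTHDC1 binds methylated RNA, and an intronic signal can also come from a retained intron or from an exon or gene that the annotation in use does not hold. Ribosomal RNA was depleted from total RNA here, a preparation that keeps unspliced transcripts.

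METTL16 was not among the listed genes, so its overexpression was not checked here. Of 11 markers of a bronchial epithelial line, 4 were listed (ITGB4, KRT18, KRT8 and VIM), and KRT5, KRT7, KRT17, KRT19, EPCAM, CDH1 and TP63 were not. Their FPKM values (fragments per kilobase of transcript, scaled to library size) ran from 0.69 to 510.0 in the OE input and from 0.78 to 499.0 in the NC input. They summed to 623.9 in the OE input and 605.5 in the NC input, so 1 gene gave most of each sum. None of 5 leukocyte and none of 4 endothelial markers was listed. Of 6 fibroblast markers only COL1A1 was, at 2.28 FPKM in the OE input and 2.33 FPKM in the NC input. The table lists a gene only where it has a peak, each peak in it has a p-value under 0.05, and the depth of the libraries is unknown.

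Sequence could be read for intronic peaks that reach into a promoter window, the 250 bases before and 50 bases after a gene start in RefSeq. The sequences of 3 such peaks are shown on the strand of the host gene (RefSeq, GRCh38.p14), because they include the whole of 1 peak and peaks with either sign of fold change. Capitals mark each match to DRACH, the 5-base pattern in which m6A is usually found (A, G or T, then A or G, then A and C, then A, C or T). GGACT is 1 form of it and is counted in both.
RAB27A, chr15:55270914-55271164, minus strand: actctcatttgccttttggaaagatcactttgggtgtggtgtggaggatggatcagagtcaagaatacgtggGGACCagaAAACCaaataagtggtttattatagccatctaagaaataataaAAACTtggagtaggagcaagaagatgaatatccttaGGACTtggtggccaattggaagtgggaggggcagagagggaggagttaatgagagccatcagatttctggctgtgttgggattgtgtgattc
TMPO, chr12:98516383-98516476, plus strand: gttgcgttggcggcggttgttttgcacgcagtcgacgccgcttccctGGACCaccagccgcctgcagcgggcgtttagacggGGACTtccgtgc
FBRSL1, chr12:132552052-132552351, plus strand: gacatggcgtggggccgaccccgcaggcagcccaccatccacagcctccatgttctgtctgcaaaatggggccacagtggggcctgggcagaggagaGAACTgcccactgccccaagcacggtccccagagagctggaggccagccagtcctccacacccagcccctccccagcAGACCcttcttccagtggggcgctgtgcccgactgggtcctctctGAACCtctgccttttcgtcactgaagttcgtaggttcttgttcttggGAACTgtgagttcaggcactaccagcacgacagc

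The RAB27A sequence is a whole peak of 251 bases. It covers the start that RefSeq's promoter table gives for RAB27A, a small GTPase of vesicle transport, while the peak's midpoint lies 41.4% of the way along the gene's full span. It held 4 DRACH matches, 1 of them GGACT, on the host strand and 3 DRACH matches on the other strand. The same stretch of all 35116 promoter windows held DRACH in 95.3% and GGACT in 21.3%, with a median of 4 DRACH matches, so its count is the typical one. Its GC content was 43.4%, against a median of 58.2% in those windows. In the authors' deposited table this peak had a log2 fold change of 2.64 (p = 0.0109), at a host level of 1.30 FPKM in the OE input and 1.61 FPKM in the NC input.

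TMPO encodes lamina-associated polypeptides of the nuclear envelope. Its 94 bases lie in the promoter window of TMPO-AS1, on the opposite strand, and are the start of a peak that spans 11187 bases. On the host strand they held 2 DRACH matches, 1 of them GGACT, where 75.6% of windows held DRACH and 8.81% held GGACT. The other strand held 1 DRACH match. The authors' deposited table gave this peak a log2 fold change of 1.43 (adjusted p = 0.211). The FBRSL1 bases lie in the window of LOC124903061 and are part of a peak that spans 3576 bases. They held 4 DRACH matches and no GGACT on the host strand, with DRACH in 97.2% and GGACT in 25.3% of windows. The other strand held more, with 9 DRACH matches, 1 of them GGACT. The log2 fold change of the FBRSL1 peak was -0.66 (adjusted p = 0.172) in the authors' deposited table.

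The listed intronic peaks differed between the arms in both directions and mostly by large factors. Only peaks with a p-value under 0.05 are listed, so the shares describe listed peaks and not all intronic m6A. How far that limit sets the 2-fold share was not tested. Of the 699, 599 (85.7%, exact Clopper-Pearson 95% interval 82.9 to 88.2) had a fold change of 2 or more in the authors' deposited table, where 43.7% of all listed peaks did. Among them 251 were higher in OE (35.9% of intronic peaks, 16.5% of all peaks) and 348 were lower (49.8% of intronic peaks, 27.2% of all peaks). The lower ones were 58.1% of the 2-fold intronic peaks (54.0 to 62.1) and 63.0% of the 2-fold peaks of all other regions (61.4 to 64.6). That order turned with the scaling: with values centred on the median of all listed peaks, the shares were 51.8% of intronic and 48.7% of other 2-fold peaks. Such intervals count peaks of 1 pair of arms and carry no replicate error.

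The median log2 fold change was -0.98 for intronic peaks, with quartiles of -2.25 and 1.67, and -0.38 for all other peaks, with quartiles of -1.02 and 0.31, in the authors' deposited table. Intronic values formed a lobe on each side of 0 with few values between, in a list that holds only peaks with a p-value under 0.05. All other peaks had their mass just below 0: of the 5234 under 2-fold, 1086 were above 0 and 4148 below. Of the 100 intronic peaks under 2-fold, 52 were above 0 and 48 below. A wide spread was not particular to introns. Noncoding exonic peaks had quartiles of -2.06 and 1.14, with 70.4% at 2-fold, and 5'UTR peaks -1.86 and 0.68, with 67.7%. The 2-fold share was 39.5% of 3'UTR, 39.0% of coding exonic, 38.0% of start codon and 12.2% of stop codon peaks. A 4-fold difference was seen in 342 intronic peaks (48.9%, against 20.6% of all listed peaks) and a 16-fold one in 54 (7.73%, 18 higher and 36 lower in OE), against 3.54% of all listed peaks and 8.81% of noncoding exonic peaks.

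**Figure D1:**
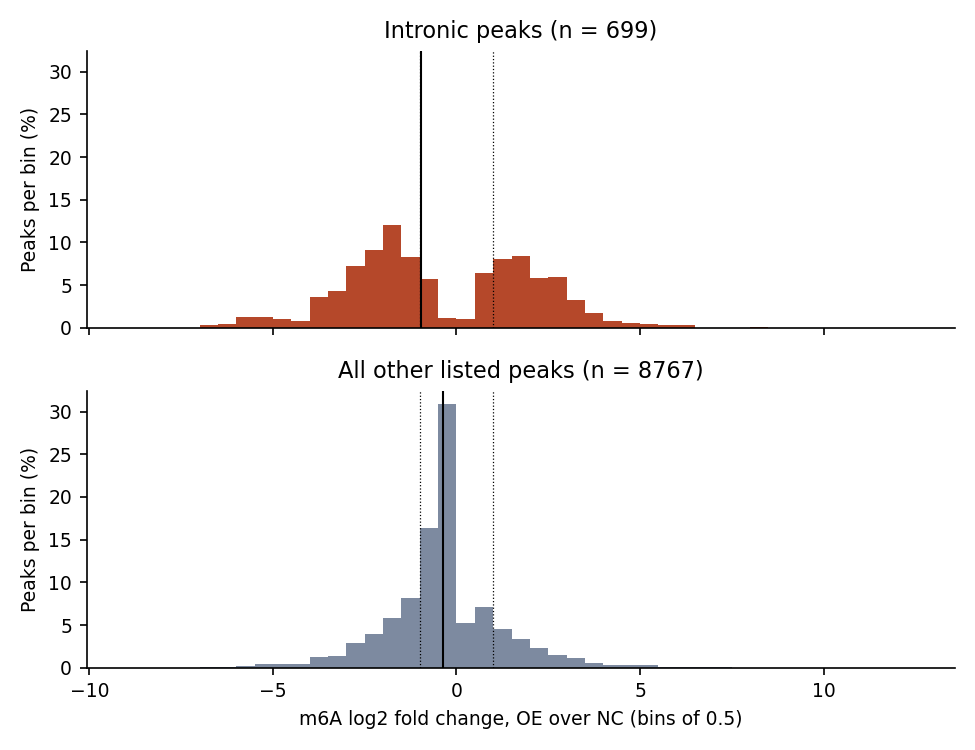
Share of peaks (%) in bins of 0.5 of the authors' m6A log2 fold change, OE over NC, for 699 intronic peaks (upper panel) and 8767 other peaks (lower panel). The solid line is the median (-0.98 and -0.38) and dotted lines mark 2-fold. Intronic peaks show a lobe on either side of 0, and the other peaks crowd just below 0.

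The authors' statistical support was thinner for intronic peaks than their fold changes. An adjusted p was empty for 192 of them (27.5%, against 9.45% of all listed peaks), and every such peak was at 2-fold or more. Of the 507 with an adjusted p, 88 (17.4%) were below 0.05 in the authors' deposited table, where 28.2% of all peaks with one were. Those 88 comprised 45 peaks above 0 and 43 below, while over all regions there were 594 above and 1825 below. Among the 507, 80.3% were at 2-fold or more (76.5 to 83.7), against 35.1% of other peaks with an adjusted p.

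Intronic peaks were short. Their median span was 201 bases (quartiles 126 and 401), against 951 bases in all other regions, and 47 exceeded 1000 bases. At the shortest span of 101 bases the 2-fold share was 87.4% for intronic peaks (79.7 to 92.9), against 80.7% of other peaks (76.1 to 84.7), intervals that overlap. It was 93.5% for intronic peaks of 102 to 151 bases, against 77.2% of other peaks of that span. It was 75.3% against 36.5% at 502 to 1000 bases and 51.1% against 23.9% above 1000 bases. The share was lowest above 1000 bases in both sets.

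The level of the host transcript barely differed between the inputs. Of 609 host genes, 599 had an input level, and 564 of these reached 1 FPKM in 1 or both inputs. Their median input difference, as log2((FPKM + 1)/(FPKM + 1)), was -0.04, against -0.02 over all 5467 genes at that level. On this scale only ENSG00000285043 reached 2-fold, at 25.9 FPKM in the OE input and 7.65 FPKM in the NC input, where 0.293% of all genes did. At 1.5-fold on the same scale there were 2 more, the readthrough genes TIMM23B-AGAP6 (3.60 FPKM in OE, 1.89 FPKM in NC) and BIVM-ERCC5 (3.04 FPKM in OE, 1.40 FPKM in NC). That made 3 of the 564 hosts, where 52 of all 5467 genes were at 1.5-fold. By the plain ratio of FPKM values, 3 of the 564 hosts were at 2-fold, where 38 of all 5467 genes were.

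When peaks were sorted into 10 equal groups by mean input FPKM, intronic peaks had the higher 2-fold share in each group. In group 4, at 2.71 to 3.95 FPKM, 94.7% of 75 intronic peaks and 47.0% of 847 other peaks were at 2-fold. The shares were closest in group 1, the lowest levels, at 86.7% of 30 intronic peaks (69.3 to 96.2) and 80.2% of 894 others (77.4 to 82.8), intervals that overlap. Weighted to the input levels of the intronic peaks, the other regions had a 2-fold share of 35.6%, against 85.6% of the 689 intronic peaks with a level. Weighted by span as well, an alternative added after seeing the data, theirs was 57.1%, so the gap of 50.0 points became 28.6 points.

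The most expressed group stood apart in direction. Above 30.1 FPKM the median log2 fold change of 59 intronic peaks was 0.52, against -0.18 for 863 other peaks, in the authors' deposited table. Of those intronic peaks 36 were above 0 (61.0%, 47.4 to 73.5), against 28.4% of the others (25.4 to 31.5). The 2-fold ones were 14 higher and 14 lower, so the surplus lay among the 31 under 2-fold, of which 22 were above 0. An adjusted p below 0.05 was given to 18, 13 of them above 0, against 140 of 447 in the other regions. The 2 sets were unlike in length, with median spans of 176 bases for intronic and 726 bases for other peaks. Of the 59 intronic peaks 31 were at most 200 bases long, and of the 863 others 92. Signs here are not centred, and the median of all listed peaks was -0.38.

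**Figure D2:**
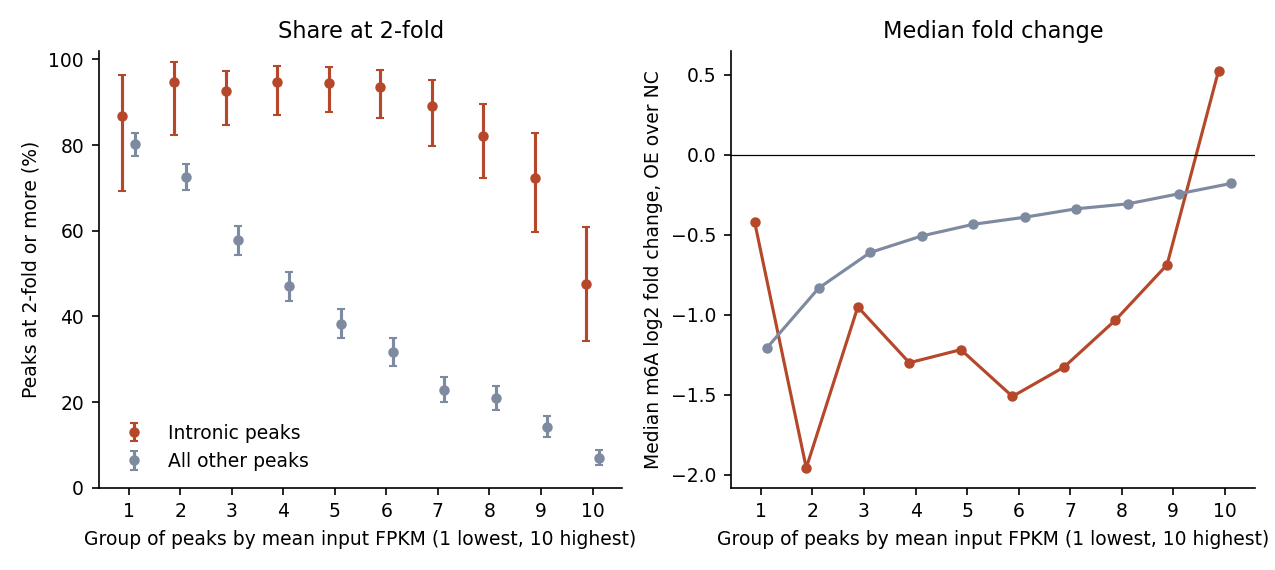
Left, the share of peaks at 2-fold or more (%) with exact 95% intervals, and right, the median m6A log2 fold change, OE over NC, in 10 groups of peaks by mean input FPKM, for intronic peaks and all other peaks. The intronic share is higher in every group, falls to 47.5% in group 10, and there the intronic median is 0.52 against -0.18.

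The abundant hosts in that group included 4 of the 10 intronic peaks with the smallest p. ANXA2, a calcium-dependent membrane-binding annexin, had a level of 186.7 FPKM in the OE input and 162.4 FPKM in the NC input. Its 176-base peak at chr15:60362657-60362832 had a log2 fold change of 0.76 (adjusted p = 2.79e-13) in the authors' deposited table. A further intronic ANXA2 peak, 101 bases long and 3.86% of the way along the gene, also stood at 0.76 (adjusted p = 0.0765) in the authors' deposited table. ANXA1, an annexin with anti-inflammatory roles, had 62.9 FPKM in the OE input and 53.3 FPKM in the NC input, with a peak at 0.82 (adjusted p = 4.19e-08) in the authors' deposited table. APP, the amyloid precursor protein, had 97.6 FPKM in the OE input and 96.0 FPKM in the NC input. The authors' deposited table gave its 101-base peak 0.79 (adjusted p = 4.50e-08). LY6E, a membrane-anchored protein with antiviral roles, had 56.5 FPKM in the OE input and 54.8 FPKM in the NC input, and its peak was the one below 0, at -0.51 (adjusted p = 0.000778), in the authors' deposited table. Apart from the further APP peak, each of these differences is under 2-fold, in short peaks of transcripts whose input levels differ little. Peaks of ANXA2 and ANXA1 outside introns were above 0 as well. The authors' deposited table gave ANXA2 3'UTR peaks at 0.92 and 0.14, and ANXA1 an exonic peak at 0.85 and a stop codon peak at 0.54.

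The other 6 peaks with the smallest p were larger differences at lower host levels, and LARS1 and SLC35F1 among them are described further on. GOLGA4, a golgin that tethers vesicles at the trans-Golgi, had 5.24 FPKM in the OE input and 5.31 FPKM in the NC input, and a peak at 1.92 (adjusted p = 7.20e-07) in the authors' deposited table. KDM6A, a demethylase of histone H3 lysine 27, had 2.98 FPKM in the OE input and 2.31 FPKM in the NC input. Its peak at chrX:45061537-45062037 stood at -2.52 (adjusted p = 0.000546) in the authors' deposited table. POLK, a translesion DNA polymerase, was at -1.52 (adjusted p = 0.00215) in the authors' deposited table. BIVM-ERCC5 was at -2.32 (adjusted p = 0.000564) per the authors' deposited table, beside the higher OE input level given above.

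The most extreme fold changes came with weaker support. Among hosts at an FPKM of 1 or more in both inputs, the 10 highest lay between 4.66 and 8.18, and the authors' deposited table leaves the adjusted p of each empty. ABCA5, a lipid transporter, led them at 8.18 (p = 0.000553) in the authors' deposited table, in a 126-base peak, with 1.82 FPKM in the OE input and 2.07 FPKM in the NC input. PABPC1, the cytoplasmic poly(A)-binding protein, was at 6.11, and POU2F1, the transcription factor OCT1, at 6.09 in the authors' deposited table. MRPS22, ARL16, ST7, CLP1, MAP3K7 and YY1 were also among the 10. MAP3K7, the kinase TAK1 of inflammatory signalling, stood at 4.71, and the transcription factor YY1 at 4.66, in the authors' deposited table. The FPKM values of the 2 inputs differed by at most 1.17-fold in these 10 hosts.

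The 10 lowest lay between -6.77 and -5.79, and the adjusted p of 8 of them is empty in the authors' deposited table. The lowest was KEAP1, an adaptor that directs NRF2 to degradation, at -6.77 (p = 0.00312) in the authors' deposited table, in a 201-base peak, with 8.04 FPKM in the OE input and 8.47 FPKM in the NC input. The ubiquitin ligase ITCH followed at -6.55. ATP5PO, a subunit of mitochondrial ATP synthase, at -6.42 (adjusted p = 0.0488), and ABCB8, a mitochondrial transporter, at -6.41 (adjusted p = 0.0480), were those with an adjusted p in the authors' deposited table. The annexin ANXA4 was at -6.18, the chromatin protein SMCHD1 at -6.00 and the histone deacetylase HDAC7 at -5.82 in the authors' deposited table. LRRFIP2, ZNF75A and AKAP8L completed the 10, and the FPKM values of the 2 inputs differed by at most 1.22-fold in these hosts.

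**Figure D3:**
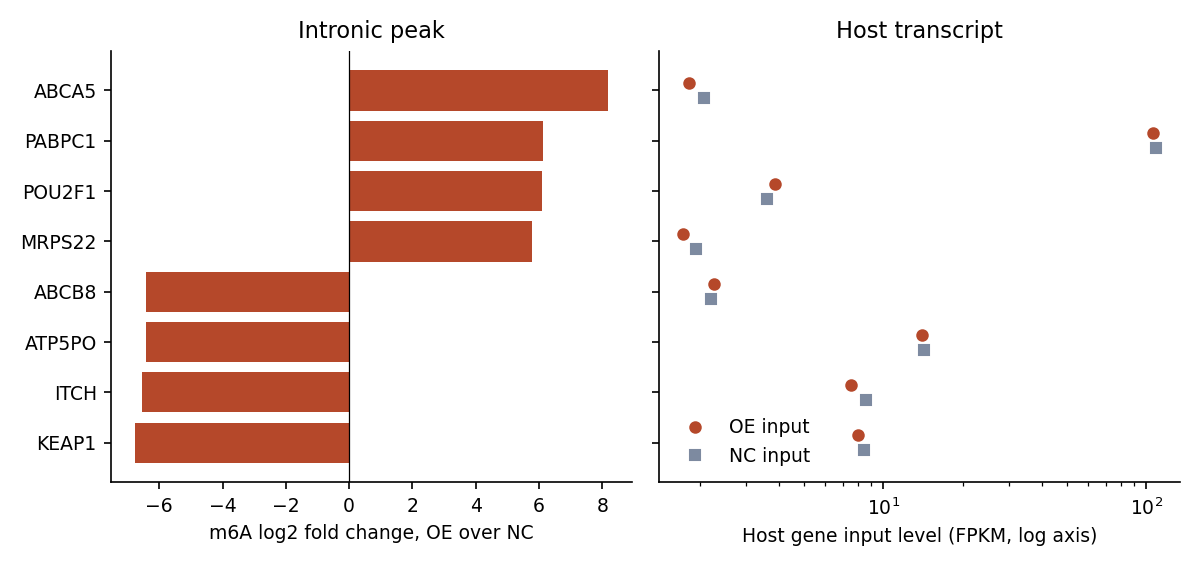
Left, the authors' m6A log2 fold change (OE over NC) of the 4 highest and 4 lowest intronic peaks. Right, input FPKM (log axis) of their host genes in the OE input and the NC input, 1 library each. The peaks run between 8.18 for ABCA5 and -6.77 for KEAP1, while the 2 input levels of each host nearly coincide.

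Position along the gene could be set for 667 peaks inside the RefSeq span of a host matched by name (14 lay outside it and 18 had no matched host). They became more frequent towards the 3' end: from the 5' to the 3' end, in 5 equal parts of the gene, there were 93, 107, 119, 169 and 179 peaks, which is 13.9% of them at the 5' end and 26.8% at the 3' end. The median log2 fold change was 0.53 in the part at the 5' end, with 41 peaks 2-fold higher and 43 lower in OE in the authors' deposited table. It lay between -1.21 and -1.01 in the other 4 parts, and in each of those more peaks were 2-fold lower than higher. Those outside the RefSeq span include the PABPC1 peak, the CLP1 peak, which lies inside the noncoding gene MIR130AHG, and the LY6E peak.

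Another listed peak in a different region was available for 324 host genes, and the other 285 had intronic peaks only. Within these 324, the intronic peak was at 2-fold in 277 (85.5%) and the other peak of the same gene in 114 (35.2%), taking the smallest p of each kind in the authors' deposited table. The median within-gene difference, intronic minus other, was -0.19 on the log2 scale. It was -1.39 in the 41 genes whose other peak was at a stop codon, with 12.2% of those other peaks at 2-fold. In the 24 genes whose other peak was in the 5'UTR it was 0.74, with 66.7% of the other peaks at 2-fold. The pairs were not matched on span. Over all 324 genes, the intronic value was above the other in 154 and below it in 170, and it was farther from 0 in 271. The signs were opposite in 142 genes (43.8%). Both were at 2-fold in 101 genes, with the same sign in 58 and opposite signs in 43.

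The largest differences within a gene were against 3'UTR peaks. ABCA5 had 8.18 in the intron and -1.44 in the 3'UTR, and MRPS22, a mitochondrial ribosomal protein, had 5.79 and -2.01, all log2 fold changes of the authors' deposited table. In the other direction RNASEH2B, a subunit of ribonuclease H2, had -3.65 in the intron and 4.87 in the 3'UTR. ALPK1, a kinase that senses a bacterial sugar, had -3.66 and 4.43, and the histone demethylase KDM4C -1.70 and 5.88, in the authors' deposited table. The table gives 1 input level per gene, which both of its peaks share.

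**Figure D4:**
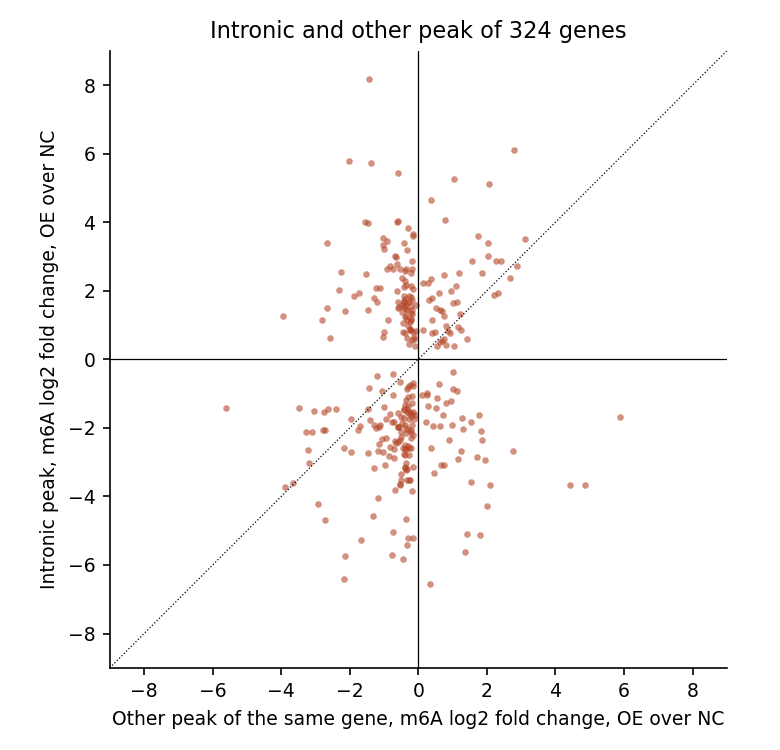
Authors' m6A log2 fold change (OE over NC) of the intronic peak (vertical axis) and of another peak of the same gene (horizontal axis) in 324 genes, the peak with the smallest p of each kind. The dotted line marks equal values. Intronic values spread above and below 0, 277 of them at 2-fold, while the other peaks cluster just below 0.

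Several intronic peaks were found on 80 genes, and they had the same sign in 48. Signs were most often shared by close neighbours. Of 23 neighbouring pairs at most 500 bases apart, 19 had the same sign (82.6%, 61.2 to 95.0), against 17 of 30 at 501 to 5000 bases and 20 of 37 farther apart. Pairs this close may be pieces of 1 enriched stretch, and whether they are was not tested. The share beyond 500 bases was 56.7% (37.4 to 74.5) and 54.1% (36.9 to 70.5) in the 2 classes, intervals that overlap that of the close pairs.

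LARS1, the cytosolic leucyl-tRNA synthetase, had 4 intronic peaks. The 3 between 35.4 and 40.9 kb from its 5' end stood at -1.78, -1.52 and -1.57, and the one at 51.3 kb stood at 2.39, in the authors' deposited table. The 1151-base peak at -1.52 had an adjusted p of 0.00153. FKBP15, a protein of endosome transport, also had 4, at 1.33, 2.66, -1.58 and 1.64 in 5' to 3' order in the authors' deposited table. PDE10A, a cyclic nucleotide phosphodiesterase, had 3 peaks that were all lower in OE, at -2.62, -3.60 and -1.96 in the authors' deposited table, which also lists a 5'UTR peak at -0.70. In MX1, an interferon-induced antiviral GTPase with 74.6 FPKM in the OE input and 68.8 FPKM in the NC input, none of the 3 intronic peaks reached 2-fold. NARF, TRAPPC12 and UFD1 each held intronic peaks of both signs in the authors' deposited table.

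**Figure D5:**
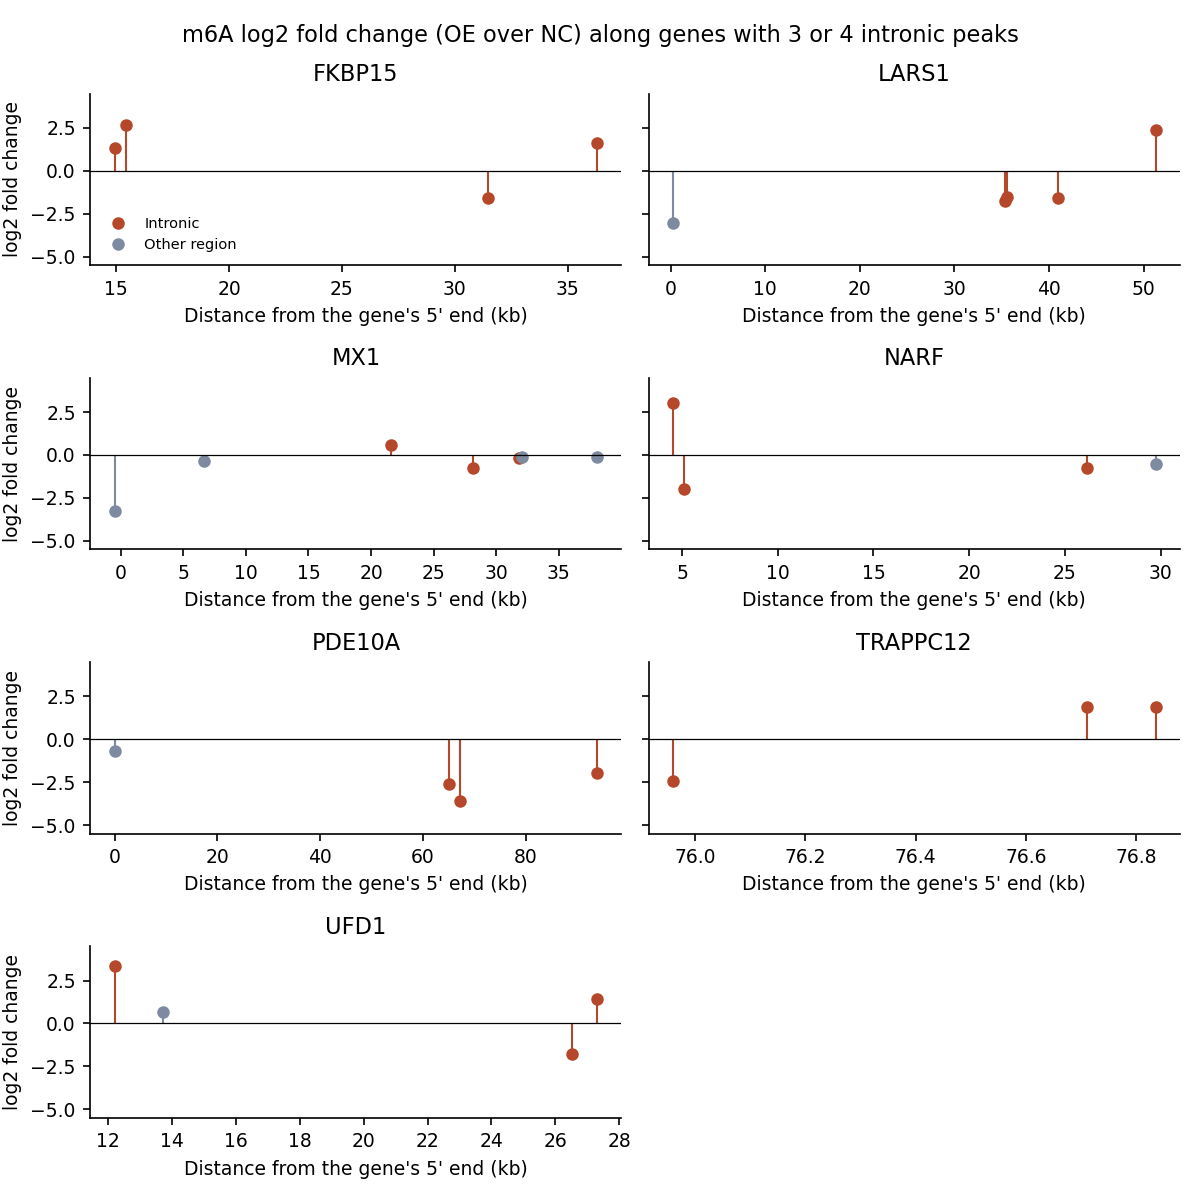
Authors' m6A log2 fold change (OE over NC) of each listed peak against distance from the 5' end (kb) in 7 genes with 3 or 4 intronic peaks, intronic peaks and peaks of other regions in separate colours. PDE10A has 3 intronic peaks below 0, and each of the other 6 genes has intronic peaks on both sides of 0.

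Gene groups were read against the intronic shares above (251 higher and 348 lower of 699), and none was tested. Decay genes had an adjusted p below 0.05 at 1 of 5 peaks, and splicing factors at 2 of 5. Chromatin modifiers had it at 1 of 18, and receptors and kinases at 2 of 11. The NRF2 and DNA damage lists had it at 1 of 4 each, and all intronic peaks at 88 of 699. Of peaks named below, the adjusted p is empty for SF3B2, CLP1, KDM3A, IGF1R, PARP1, KEAP1, NSD1 at -5.20 and ATR at -2.26. It is also empty for both peaks of SMARCA4 and of GSK3B. Of 26 genes of nuclear RNA decay and surveillance, 15 were listed and 4 had intronic peaks, all 5 of which were lower in OE by 2-fold or more, with a median of -2.05. EXOSC7, a subunit of the RNA exosome, had peaks at -2.94 (adjusted p = 0.0104) and -2.05, and EXOSC10, its nuclear catalytic subunit, was at -1.95, in the authors' deposited table. SMG1 and SMG6, a kinase and an endonuclease of nonsense-mediated decay, were at -3.31 and -1.82 in the authors' deposited table. The SMG6 peak lies wholly in the pseudogene MCUR1P1.

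Of 67 splicing factors, 42 were listed and 4 had intronic peaks. SF3B2, a component of the U2 particle, was at -3.74, RBM5 at -1.32 and TRA2B at 1.63 in the authors' deposited table. Among 23 genes of the m6A machinery, 12 were listed and only IGF2BP3, a cytoplasmic m6A reader, had an intronic peak, at -1.71 (adjusted p = 0.222) in the authors' deposited table. Among 23 genes of 3' end processing, 17 were listed and only CLP1 had one. Of 18 hosts of snoRNAs and other small RNAs, 12 were listed and none had one, while EEF1B2, outside that list, had one on a snoRNA, given further on.

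Chromatin modifiers, the list with most listed genes, had 18 intronic peaks on 14 of 52 listed genes, 6 of them 2-fold higher and 9 lower, with a median of -0.82. NSD1, a histone H3 lysine 36 methyltransferase, had -5.20 and 0.98, the second of them wholly in the pseudogene PRMT1P1, and ARID1B, a subunit of the BAF remodelling complex, 1.54 and -2.35, in the authors' deposited table. KDM3A, a demethylase of histone H3 lysine 9, was at -5.71, and the remodeller CHD3 at 2.31 there. SMARCA4, the BRG1 ATPase, had adjacent peaks, for which the authors' deposited table gave 2.06 and 2.08.

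Receptors and kinases of growth signalling had 11 intronic peaks on 7 of 23 listed genes, 3 higher and 8 lower by 2-fold, with a median of -1.81. GSK3B, the kinase of glycogen and WNT signalling, had adjacent peaks at -3.70 and -4.57, and IGF1R, the receptor of insulin-like growth factor, one at 4.02, in the authors' deposited table. PTK2, the focal adhesion kinase, at 3.38 (adjusted p = 0.0314), and FGFR1, a fibroblast growth factor receptor, at -1.56 (adjusted p = 0.0497) were those below an adjusted p of 0.05 in the authors' deposited table. TGFBR2, a receptor of TGF-beta, was at -1.81 (adjusted p = 0.0703) in the authors' deposited table.

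In the NRF2 pathway, 3 of 11 listed genes had 4 intronic peaks. BACH1, a repressor that competes with NRF2 at its DNA sites, had -2.49 (adjusted p = 0.0402) and -1.62, and NFE2L2, which encodes NRF2, 1.43 (adjusted p = 0.220), beside KEAP1, in the authors' deposited table. In the DNA damage response, 3 of 22 listed genes had 4, evenly divided. The kinase ATM was at -2.35 (adjusted p = 0.0307), its relative ATR at 1.77 and -2.26, and PARP1, which makes poly(ADP-ribose) at DNA breaks, at 3.03 in the authors' deposited table.

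Part of the intronic peaks coincided with another gene, and no such share is given here for the other regions. At least 1 other RefSeq gene overlapped 143 of them (20.5%), on the same strand in 23 (3.29%), on the opposite strand in 48 and on a strand not known here in the others. The overlapping genes included noncoding RNAs for 50 peaks and other coding genes for 46. The 2-fold share was 73.4% of those 143 (65.4 to 80.5) and 88.8% of the 556 with no other gene (85.9 to 91.3). Their median spans were 376 and 201 bases, and the shares were not matched on span. A single peak lay on a snoRNA: the EEF1B2 peak at chr2:206162302-206162402 has 57.4% of its bases in SNORA41, a guide RNA of ribosomal RNA modification, and stood at -0.88 (adjusted p = 0.0578) in the authors' deposited table. No intronic peak overlapped a miRNA hairpin.

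Processed pseudogenes, copies of spliced mRNAs inserted in the genome, often lie in introns. A RefSeq pseudogene of at most 10000 bases covered at least 50% of 48 intronic peaks (6.87%, 5.11 to 9.0), a comparison made after seeing the data. Among peaks of at most 1000 bases it did so for 43 of 652 intronic peaks (6.60%, 4.81 to 8.78). In the other regions, with noncoding exonic peaks left out, it did so for 7 of 3804 (0.184%, 0.0740 to 0.379). No such share is given here for noncoding exonic peaks, so the contrast does not cover them. These 48 were 19 higher and 20 lower by 2-fold in OE, with a median of -0.12, against -1.03 for the other 651, in the authors' deposited table. The parent gene, read by symbol, was listed for 29 of them, and its input level was above that of the host in 24, with a median of 45.0 FPKM against 4.86 FPKM for the hosts in the OE input and 46.1 FPKM against 5.16 FPKM in the NC input. Reads of the parent mRNA can match such a copy, and whether they did was not tested.

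The intronic peak with the smallest p of all was of this kind. SLC35F1, at 0 FPKM in the OE input and 0.00846 FPKM in the NC input, carried a 401-base peak at chr6:117999024-117999424 that lies wholly in RPL29P4, at -3.46 (p = 1.64e-29) in the authors' deposited table. RPL29, the ribosomal protein gene in the name of that copy, had 87.7 FPKM in the OE input and 95.0 FPKM in the NC input. The GOLGA4 peak given above lies wholly in TCEA1P2, and TCEA1, a transcription elongation factor, had 23.9 FPKM in the OE input and 25.6 FPKM in the NC input. The SFI1 peak lies in RPS18P14 and stood at 4.01 in the authors' deposited table, where RPS18 had 132.6 FPKM in the OE input and 128.3 FPKM in the NC input. Of the 48, 9 lay in copies of ribosomal protein genes, and 4 of the 25 intronic peaks with the smallest p lay in a pseudogene.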

How the data were processed

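The only file was the authors' own comparison of the OE and NC arms. Per the file headers it gives, for each peak, a log2 fold change of m6A with its p-value, raw and adjusted, a peak length from first to last genomic base, and, for each gene, the FPKM of both inputs with their ratio (fold change), its log2, and a q-value and p-value of expression, all deposited by the authors. Per the submitters' processing notes, fastp 0.19.4 was used and hg38 was the build. What the aligner, peak caller, test and strand setting were is not given in the sources used here. Those p-values compare single libraries. Depth is unknown, since FPKM values came without counts. Levels of the immunoprecipitated libraries were not analysed here.

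Peaks counted as 2-fold at a log2 fold change of 1 or more in either direction. Shares have exact Clopper-Pearson 95% intervals (Python 3.11.15, pandas 2.3.3, numpy 2.4.6, scipy 1.17.1, matplotlib 3.10.9). Counting and matching were tested on simulated data. Genes were placed with RefSeq (GRCh38.p14), matched by symbol or synonym, and readthrough genes of the host were left out of overlaps. Named peaks were the 10 highest and 10 lowest among hosts with 1 FPKM or more in each input, the 10 with the smallest p, the genes with most intronic peaks (all tied at 3 kept), up to 4 members of each list by smallest p, and the 3 largest within-gene differences each way. Further list members, pseudogene, overlap and sequence examples were chosen after their values were seen. Some peaks taken by these rules are left out of the text. The members and lists were chosen with earlier results of these data known. Motifs were counted in promoter windows only, since no genome was used here.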

Additional observations from a re-analysis of the deposited data

How the results depend on the processing

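No paired analysis was possible because each arm has 1 library of each kind and the arms share a single replicate number. The log2 fold changes depend on how the libraries were scaled: the median of all listed peaks was -0.38. Centred on it, the lower share of the 2-fold intronic peaks was 51.8%, in place of 58.1%, with 287 higher and 308 lower, and that of all listed peaks was 49.2%, in place of 62.3%. The intronic median became -0.60, in place of -0.98. Of 106 intronic peaks on named or listed genes, 3 changed sign under this centring, MFSD12 to 0.018, MX1 to 0.18 and PMEL to 0.055, and 94 kept their side of 2-fold and their sign. The 2-fold share of intronic peaks was 80.3% over peaks with an adjusted p. Its gap to other regions was 28.6 points when matched on span as well as input level. The share overlapping another gene was 20.5% on either strand, in place of 3.29% on the same strand. Within the interval of the main value stayed the 2-fold share, the lower share and the median with 1 peak per gene, with hosts at an FPKM of at least 1, and without pseudogene peaks, the first 2 of these also with peaks of at most 1000 bases, and the lower share at 4-fold (60.2%) and at an adjusted p below 0.05 (58.2% of 67 peaks). So did the within-gene difference under both alternatives (-0.16 and -0.34), the gap with 5 expression groups, and the host input difference with a pseudocount of 0.1 or no filter. The planned motif shares over intronic peaks (GGACT, DRACH and the central part of each peak) were not run, since no genome was used here. With 1 library per arm, unknown depth and a table that lists only peaks with a p below 0.05, shares describe the listed peaks and not all intronic m6A.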

Other observations

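Bases of 15 intronic peaks were shared with another listed peak, of the same gene in 9 cases and of another gene in 6. In the first 9 the signs were the same in 4, and in the 6 they were the same in 5. The PMEL peak, a melanosome protein gene at 0.191 FPKM in the OE input and 0.362 FPKM in the NC input, stood at -0.33 and shared bases with a start codon peak of CDK2, a cell cycle kinase, at -0.47 in the authors' deposited table. CDK2 had 34.2 FPKM in the OE input and 34.4 FPKM in the NC input and lies on the opposite strand. The ATP5PD peak stood at -1.78 and the KCTD2 peak over it, on the opposite strand, at -1.85 in the authors' deposited table. HIF1A, the oxygen-sensing transcription factor at 88.0 FPKM in the OE input and 82.2 FPKM in the NC input, had an intronic peak at -0.71 inside the span of an exonic peak at 0.60 in the authors' deposited table.

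By chromosome, intronic peaks made up between 4.62% (X, 12 of 260) and 14.0% (chromosome 21, 15 of 107) of the listed peaks. On chromosome 13 they were 11.6% (17 of 146).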
